A study of Mus musculus with 36 samples.

Results

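Amino acid transporters were taken as every gene whose symbol puts it in the solute carrier families Slc1, Slc3, Slc7, Slc36, Slc38 or Slc43, which gave 42 of the 24284 genes in the deposited gene tables. Of these, 27 averaged at least 1 RPKM or FPKM (reads scaled to the length of the transcript or gene and to the library's total) over the 8 libraries of stem cells and embryoid bodies and entered the tests. The remaining 15 were below that mean. Membership rested on the symbol alone, with no measured value.

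These proteins carry amino acids across the plasma membrane and, in some cases, the lysosomal membrane. Many light chains of the Slc7 family reach the cell surface only when bound to a heavy chain of the Slc3 family, and they exchange one amino acid for another. Many Slc1 and Slc38 proteins depend on sodium for transport. Imported leucine, arginine and glutamine feed protein synthesis and the kinase complex mTORC1, and when amino acids run short the factor ATF4 raises transcription of several of these transporter genes.

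All cells in the study lacked MLL3, the histone methyltransferase encoded by Kmt2c. The control genotype, MLL3-/-;MLL4flox/flox, kept conditional alleles of MLL4 (the related enzyme encoded by Kmt2d) and is called f/f here. The compared genotype, MLL3-/-;MLL4-/-, had lost MLL4 as well and is called DKO. The labels do not say whether a group was 1 clone or how the MLL4 alleles were recombined. RNA was sequenced from embryonic stem cells (ESC) grown on irradiated fibroblast feeders with LIF and nonessential amino acids, and from embryoid bodies kept 4 days in suspension without LIF. It was also sequenced from immortalised embryonic fibroblasts (MEF) in medium with serum, and from the same fibroblasts 20 days after lentiviral Oct4, Sox, Klf4 and c-MYC, moved to ES medium early in that time. Medium and factor treatment therefore changed together between the fibroblast and day-20 libraries and cannot be told apart. Each ESC and body group had 2 libraries, replicate 1 in RPKM and replicate 2 in FPKM, and each fibroblast and day-20 group had 1 library in FPKM. Nothing in the labels says that replicates were separate cultures, and a p-value here therefore reflects only how far these libraries scatter, a scatter that may be technical.

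The depth behind the values ran from 11366200 reads (replicate 2 of the f/f bodies) to 38264157 reads (fibroblasts labelled DKO). Kmt2d was lower in DKO than in f/f in the 4 ESC and body pairs (for example 13.5 against 8.89 RPKM in ESC replicate 1). It was higher in the libraries labelled DKO in fibroblasts (23.5 against 14.4 FPKM) and at day 20 (24.8 against 12.9 FPKM), which runs against a loss, although a value over the whole gene does not isolate deleted exons. All 10 markers of pluripotent cells reached 1 in every ESC and body library, but only 4 of 10 did in the f/f library at day 20 and 1 of 10 in the library labelled DKO, while fibroblast markers summed to 14612.6 and 10046.9 FPKM there. The day-20 libraries are therefore named by their day and not as pluripotent cells. Fibroblast and feeder markers also summed to 535 FPKM (f/f) and 472 FPKM (DKO) in ESC replicate 2, beside 72.0 and 88.8 in the other unit, RPKM, in replicate 1, and their part in the ESC results was not tested. In bulk RNA, fewer cells of a type and less RNA per cell cannot be told apart.

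A level of 5 RPKM or FPKM or more in at least 1 of the 12 libraries was reached by 25 members, and 9 stayed under 1 in all of them. The number of members at 1 or more ranged from 21 (ESC f/f, replicate 1) to 29 (ESC DKO and body DKO, replicate 2). Over the 8 ESC and body libraries, the highest mean levels per length belonged to the heavy chain Slc3a2 (113), its light chain partner Slc7a5 (104) and the sodium-coupled neutral transporter Slc38a2 (101). The leading members of the other groups were Slc7a3 among cationic transporters (46.6), Slc1a5 in the Slc1 family (27.9), Slc36a1 among proton-coupled transporters (5.81) and Slc43a2 among facilitated transporters (4.29).

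**Figure D1:**
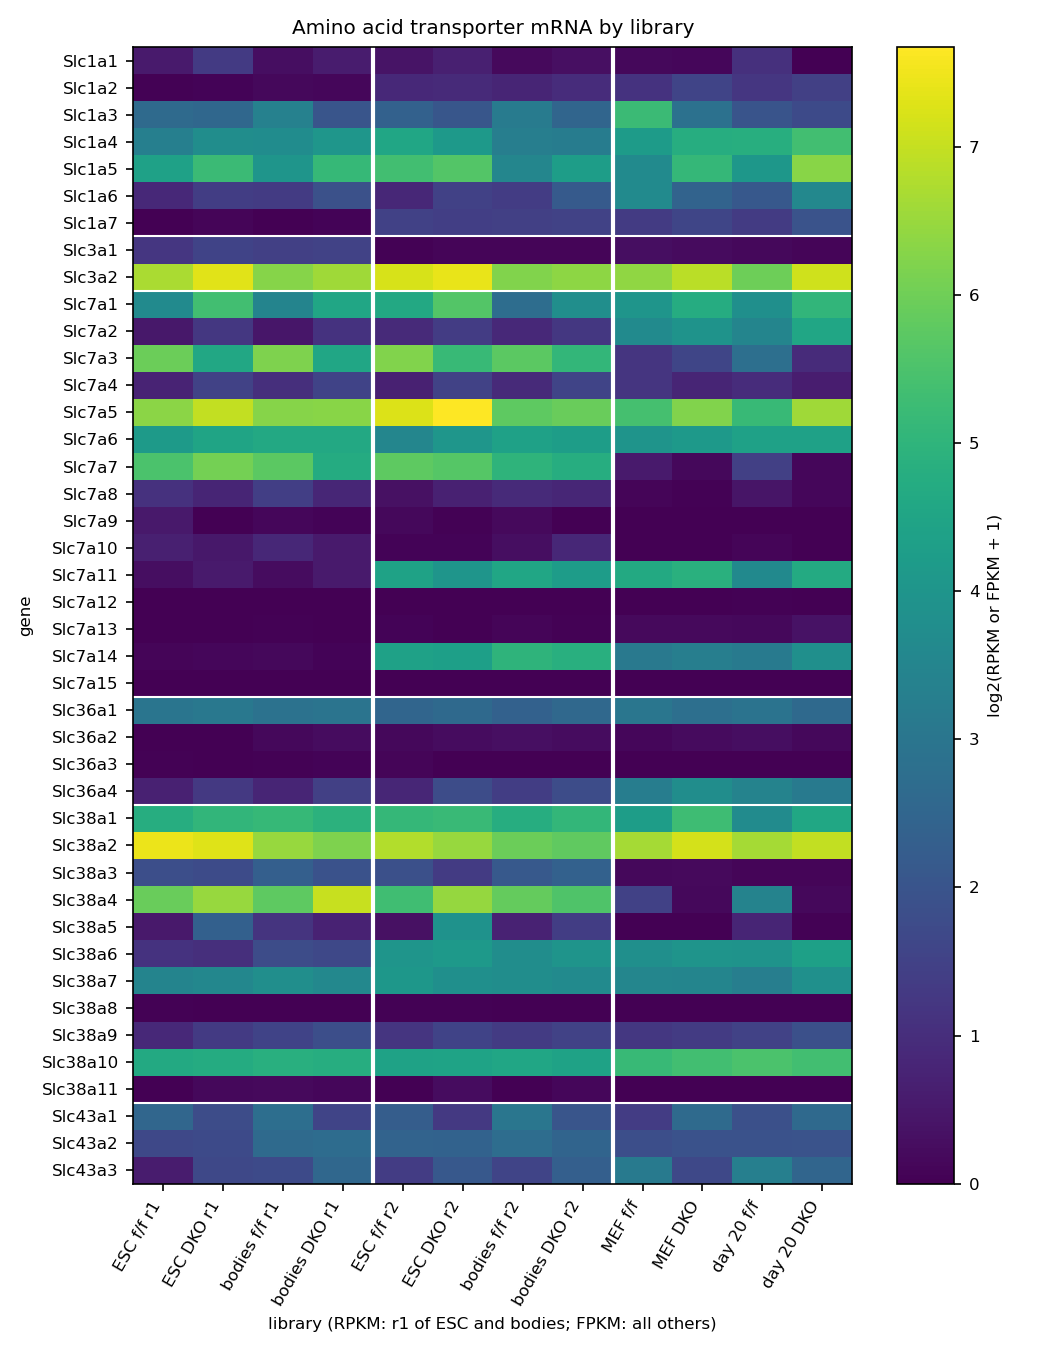
Level of the 42 members (rows) in the 12 RNA libraries (columns) as log2(RPKM or FPKM + 1); vertical white lines part replicate 1, replicate 2 and the fibroblast and day-20 libraries, and horizontal lines part the families. Slc3a2, Slc7a5 and Slc38a2 are high in all libraries, Slc7a3, Slc7a7 and Slc38a4 are high in ESC and bodies and low in fibroblasts, and Slc7a11 and Slc7a14 are low in replicate 1 only.

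The 15 untested members were mostly near the limit of detection. Slc7a9, Slc7a10, Slc7a12, Slc7a13, Slc7a15, Slc36a2, Slc36a3, Slc38a8 and Slc38a11 reached at most 0.824 in any library. Slc1a1, Slc1a2, Slc1a7, Slc3a1 and Slc7a8 reached between 1.46 and 2.89. Slc7a2, a cationic amino acid transporter, was the exception, because it stood at 0.376 to 1.59 in ESC and bodies but at 10.3 to 22.5 FPKM in fibroblasts and at day 20.

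Upstream sequence was read for the 3 members that passed a test in ESC or bodies and for Slc7a11, the cystine and glutamate exchanger, because its window held a pair of the motif searched. RefSeq's promoter table for GRCm38.p6 matched 31 of the 42 members, with 42 start sites, and the 250 bases before each start were searched on both strands. The motifs were TGATGNAA, the core of the amino acid response element bound by ATF4 with a C/EBP partner, and the E-box CACGTG, bound by MYC and related factors. The first lay in 3 of the 42 member windows (7.14%, in Slc7a7 and Slc7a11) and in 3.45% of all 32851 windows. The second lay in 7 member windows (16.7%, in Slc1a6, Slc1a7, Slc7a14, Slc36a1, Slc38a5, Slc38a7 and Slc43a1) and in 6.02% of all. No member window held both motifs, and a match describes the letters only. In the windows printed 5′ to 3′ on the strand of the gene, capitals mark motif matches; Slc38a5 held 1, Slc7a11 held 2 in opposite orientation, and Slc38a2 and the first start of Slc7a6 held 0. They lie at chrX:8271131-8271380 (plus strand), chr3:50443614-50443863 (minus), chr15:96699729-96699978 (minus) and chr8:106168604-106168853 (plus), in that order of genes.
Slc38a5: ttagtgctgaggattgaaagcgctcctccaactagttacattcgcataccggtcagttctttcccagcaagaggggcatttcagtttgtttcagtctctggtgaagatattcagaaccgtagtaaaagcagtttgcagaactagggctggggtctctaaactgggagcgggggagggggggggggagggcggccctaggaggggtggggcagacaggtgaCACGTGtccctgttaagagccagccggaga
Slc7a11: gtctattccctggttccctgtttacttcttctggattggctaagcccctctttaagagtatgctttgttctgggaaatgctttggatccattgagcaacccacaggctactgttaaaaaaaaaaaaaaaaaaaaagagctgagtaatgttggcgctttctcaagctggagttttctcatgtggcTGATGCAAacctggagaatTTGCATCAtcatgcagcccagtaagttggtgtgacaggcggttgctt
Slc38a2: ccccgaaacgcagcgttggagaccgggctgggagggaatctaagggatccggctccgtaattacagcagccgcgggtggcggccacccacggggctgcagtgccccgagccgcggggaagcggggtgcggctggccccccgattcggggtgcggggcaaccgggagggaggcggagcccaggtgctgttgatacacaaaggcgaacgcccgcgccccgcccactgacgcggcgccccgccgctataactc
Slc7a6: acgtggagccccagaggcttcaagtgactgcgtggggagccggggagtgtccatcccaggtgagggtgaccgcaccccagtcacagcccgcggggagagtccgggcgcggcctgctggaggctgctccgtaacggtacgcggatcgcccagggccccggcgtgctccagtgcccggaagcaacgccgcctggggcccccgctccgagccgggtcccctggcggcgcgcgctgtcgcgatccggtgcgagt

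The loss of MLL4 in ESC was tested first. With limma on log2(value + 1) and an adjusted p threshold of 0.05, 1 of the 27 tested members was called (3.70%), against 4.24% of all 12462 genes tested (1.57% higher and 2.67% lower). It was Slc38a5, a sodium-coupled transporter of glutamine, histidine and serine that moves protons the other way. Before any adjustment, 10 of the 27 had p under 0.05, where 22.0% of all genes did. The median difference of the tested members was 0.19 on the log2 scale and that of all genes 0.02. A fit on only the 4 ESC libraries called 9 of the 27, where it called 15.1% of all genes: Slc38a5, Slc7a1, Slc7a3, Slc7a4, Slc7a5, Slc36a4, Slc38a4, Slc43a1 and Slc43a3.

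Slc38a5 stood at 0.439 RPKM and 0.273 FPKM in the f/f ESC libraries and at 4.12 RPKM and 14.0 FPKM in the DKO ESC libraries. Both DKO libraries were above both f/f libraries, with 151 and 564 reads behind the higher values and 15 and 11 behind the lower ones. The difference was 2.70 ± 0.46 (SE, 2 libraries per group) on the log2(value + 1) scale, with an adjusted p of 0.0355 in limma. Its size was 1.83 in replicate 1 and 3.56 in replicate 2. The call was lost without any 1 of the 4 ESC libraries, where the difference was 1.93 to 3.46. Such fits leave 1 library in a group, and nearly all calls over all genes were lost in them too. That loss is therefore not particular to Slc38a5. The call was also lost without either f/f body library (2.70 in both fits), and when low genes were kept in the fit (adjusted p 0.0778, limma). In the libraries of immortalised fibroblasts Slc38a5 was near 0 (0.0185 FPKM with the f/f genotype and 0.0140 FPKM where labelled DKO, 1 read each). The part of feeders in its ESC difference was not tested.

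In bodies Slc38a5 lay between 0.660 and 1.63 in both genotypes, with the f/f libraries at 1.21 RPKM and 0.660 FPKM and the DKO libraries at 0.676 RPKM and 1.63 FPKM. The genotypes overlapped there, and the difference was 0.13 ± 0.46 (adjusted p 0.900, limma). From ESC to bodies the DKO difference was -2.06 ± 0.46 (adjusted p 0.101), and the difference between the stages' genotype effects was -2.57 ± 0.66 (adjusted p 0.200, limma), so neither passed the threshold.

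**Figure D2:**
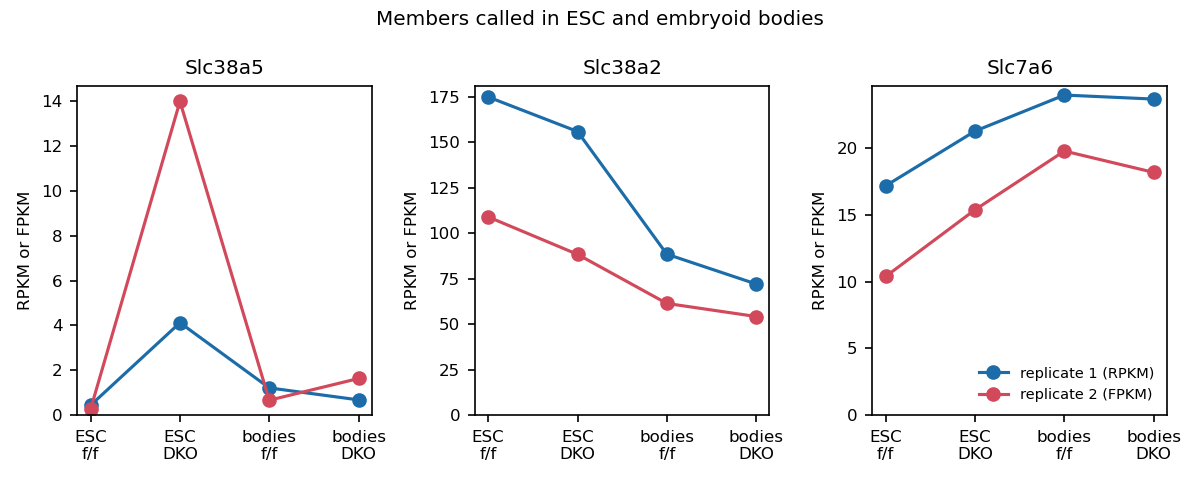
Values of Slc38a5, Slc38a2 and Slc7a6 in ESC and bodies (vertical axis, RPKM for replicate 1 and FPKM for replicate 2; lines join libraries of 1 replicate). Slc38a5 is high in the DKO ESC libraries (4.12 and 14.0), Slc38a2 is lower in bodies than in ESC in both replicates, and Slc7a6 is lowest in f/f ESC.

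The cationic transporters Slc7a1 and Slc7a3, which import arginine and lysine, had opposite genotype differences in ESC. Slc7a1 was at 11.8 RPKM and 23.6 FPKM in f/f and at 40.2 RPKM and 47.8 FPKM in DKO. Slc7a3 was at 60.8 RPKM and 73.7 FPKM in f/f and at 23.1 RPKM and 35.2 FPKM in DKO. For each gene the 2 genotypes did not overlap. Here and below, such a separation carries no test, and how many of all genes showed it was not counted. Over the 4 ESC and body pairs, 19.2% of all genes tested were higher in DKO in every pair and 18.7% lower. Neither gene was called by limma: Slc7a1 differed by 1.34 ± 0.41 (adjusted p 0.129) and Slc7a3 by -1.20 ± 0.25 (adjusted p 0.0554). Slc7a3 passed with median-of-ratios scaling (0.0439) and in the fit on only the 4 ESC libraries (0.00924), which Slc7a1 passed as well (0.0189). That fit has fewer residual degrees of freedom than the main one and called 15.1% of all genes, against 4.24%. The Slc7a3 difference stayed at -1.20 when either f/f body library was left out.

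The same arrangement was present in bodies. Slc7a1 stood at 9.93 RPKM and 5.75 FPKM in f/f and at 22.4 RPKM and 12.9 FPKM in DKO, and Slc7a3 at 72.2 RPKM and 52.7 FPKM in f/f and at 22.4 RPKM and 32.8 FPKM in DKO. Again no f/f library lay within the DKO values, and again neither was called (Slc7a1 1.07 ± 0.41, adjusted p 0.208; Slc7a3 -1.16 ± 0.25, adjusted p 0.0594), although Slc7a1 passed in the fit on only the 4 body libraries (0.0234). The ratio of Slc7a1 to Slc7a3, both per length, was 0.109 to 0.320 in the 4 f/f libraries of ESC and bodies and 0.392 to 1.74 in the 4 DKO libraries. The ratio was chosen after the values were seen and carries no test. The summed level of both genes differed less, at 58.4 to 97.3 in f/f and 44.8 to 83.0 in DKO.

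**Figure D3:**
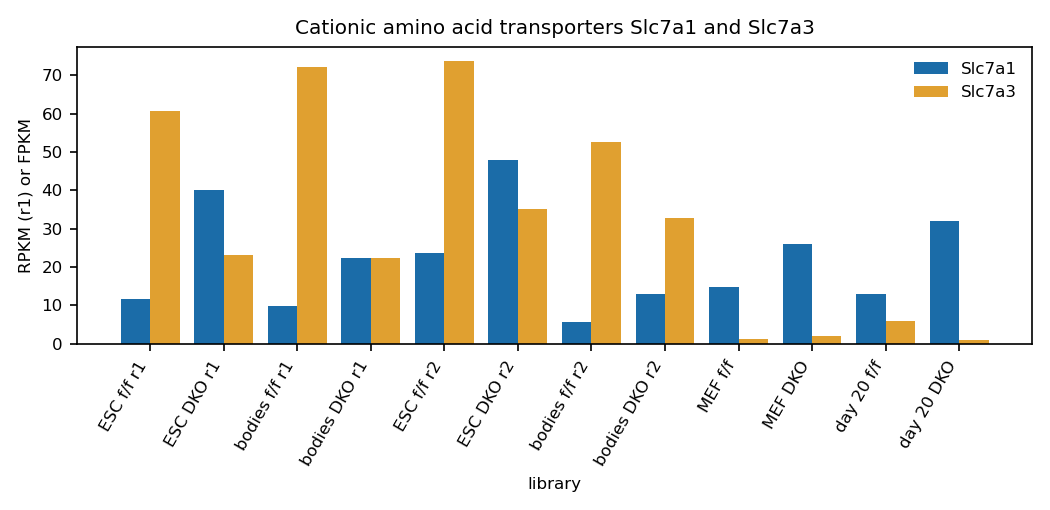
Level of Slc7a1 and Slc7a3 (bars from 0, RPKM for replicate 1 of ESC and bodies and FPKM elsewhere) in each of the 12 libraries, 1 bar per library and gene. In ESC and bodies Slc7a3 exceeds Slc7a1 in every f/f library, while in both DKO ESC libraries Slc7a1 exceeds Slc7a3 (ratios 1.74 and 1.36).

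Of the remaining cationic members, Slc7a4 and Slc7a14 were tested. Slc7a4 was low, at 0.646 to 1.03 in f/f and 1.84 to 1.95 in DKO over ESC and bodies, and its ESC difference of 0.77 ± 0.16 had an adjusted p of 0.0558 in limma, while edgeR on whole reads called it (1.44, adjusted p 0.0373). Slc7a14 could not be compared across replicates, because it averaged 0.0905 RPKM in replicate 1 and 24.4 FPKM in replicate 2, although the same length (8840 bases) was recovered from both deposits. Slc7a11 behaved likewise (0.338 RPKM and 19.0 FPKM, length 9227 bases in both), and these were the only tested members whose log2(value + 1) difference between replicates (4.54 and 3.90) passed the upper bound of the middle 95% of all tested genes (3.05). The sources used here do not give how reads were assigned in either deposit, and differences were taken within a replicate. A mean over the 8 libraries, a range or an overlap of genotypes sets RPKM beside FPKM and is given as a description.

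Among heavy and light chains, which pair to carry large neutral amino acids such as leucine, Slc3a2 was at 103 RPKM and 146 FPKM in f/f ESC and at 161 RPKM and 169 FPKM in DKO ESC. Its partner Slc7a5 was at 79.4 RPKM and 154 FPKM in f/f and at 124 RPKM and 203 FPKM in DKO. The genotypes did not overlap for Slc3a2 and did for Slc7a5, and neither was called (0.43 ± 0.17, adjusted p 0.224, and 0.51 ± 0.38, adjusted p 0.486, limma). Slc7a6 and Slc7a7, which exchange cationic for neutral amino acids with the same heavy chain, were not called by genotype either. Slc7a7 ranged from 44.7 to 66.1 in ESC and from 25.2 to 52.4 in bodies.

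In the Slc1 family, which takes up glutamate or small neutral amino acids, Slc1a5, a glutamine transporter, was at 20.1 RPKM and 40.2 FPKM in f/f ESC and at 36.9 RPKM and 48.1 FPKM in DKO ESC. In bodies Slc1a5 was at 15.1 RPKM and 10.4 FPKM in f/f and at 34.4 RPKM and 18.3 FPKM in DKO. The genotypes overlapped in ESC and not in bodies, and the body difference of 0.95 ± 0.42 had an adjusted p of 0.264 (limma). Slc1a3, a glutamate transporter, lay at 9.45 RPKM and 8.10 FPKM in f/f bodies and at 3.04 RPKM and 4.68 FPKM in DKO bodies, a difference of -1.03 ± 0.24 (adjusted p 0.0758). It was -1.43 without DKO body replicate 2 (0.0240), -0.62 without DKO body replicate 1 (0.241), and had adjusted p of 0.305 and 0.309 without f/f body replicate 1 and 2. Slc1a4, a transporter of alanine, serine and cysteine, differed by 0.03 ± 0.46 in ESC, where its f/f values (8.85 RPKM and 22.2 FPKM) lay on either side of the DKO values. Slc1a6, another glutamate transporter, was low and higher in DKO at both stages without a call (0.58 ± 0.17 in ESC, adjusted p 0.114, and 0.69 ± 0.17 in bodies, adjusted p 0.0778).

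The facilitated transporters Slc43a1 and Slc43a3 also separated by genotype within each of these stages without a call. Slc43a1, a carrier of large neutral amino acids, was at 3.79 to 7.04 in the f/f libraries of ESC and bodies and at 1.41 to 3.05 in DKO, with adjusted p of 0.119 in ESC and 0.0724 in bodies. Slc43a3, a family member reported to carry purine bases, was at 0.501 to 2.31 in f/f and 2.18 to 4.88 in DKO, with adjusted p of 0.132 and 0.182. Slc43a2 differed by -0.00 ± 0.27 in ESC and -0.10 ± 0.27 in bodies.

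Slc38a4, a sodium-coupled transporter whose gene is imprinted in several mouse tissues, was at 60.1 RPKM and 39.2 FPKM in f/f ESC and at 88.7 RPKM and 87.2 FPKM in DKO ESC, with no call (0.84 ± 0.36, adjusted p 0.235). In bodies the DKO libraries disagreed with each other, at 129 RPKM and 46.1 FPKM, around f/f values of 53.9 RPKM and 56.9 FPKM. Slc38a1, Slc38a7 and Slc38a10 stayed between 9.98 and 35.6 in all 8 libraries, and their genotype differences lay between -0.16 and 0.19. Slc38a3 (1.52 to 4.25) and Slc38a9 (0.847 to 2.58) were low in all 8 and not called, and Slc38a6, at 1.06 to 2.41 RPKM and 12.7 to 16.8 FPKM, was another member with unlike levels in the 2 deposits. The proton-coupled Slc36a1, which moves small amino acids out of lysosomes, differed by 0.10 ± 0.13 in ESC and 0.12 ± 0.13 in bodies. Slc36a4, from the same family, was at 0.645 to 1.64 in the f/f libraries and 1.44 to 2.47 in DKO, with adjusted p of 0.0807 in ESC and 0.185 in bodies.

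For the loss of MLL4 in bodies, 0 of the 27 tested members were called by limma, against 4.44% of all genes (0.827% higher and 3.61% lower), and edgeR on whole reads also called 0. The fit on only the 4 body libraries called 3 (Slc1a5, Slc7a1 and Slc43a1), beside 5.34% of all genes. At an unadjusted p under 0.05 there were 9 of 27, where the share of all genes was 21.2%. The median difference was 0.05 for members and -0.01 for all genes. The test of whether the genotype difference itself changed between ESC and bodies called 0 members and 0 genes by limma (0.0%) and by edgeR, and 2 of 27 members (Slc7a6 and Slc38a5) had an unadjusted p under 0.05, where 13.7% of all genes did.

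Between ESC and 4-day bodies of the f/f genotype, 2 of 27 members were called (7.41%, 1 in each direction), against 12.0% of all genes (8.14% higher and 3.86% lower). At an unadjusted p under 0.05 there were 7 of 27, where 32.0% of all genes passed. Slc38a2, which imports alanine, serine and glutamine and is induced when amino acids are scarce, was at 175 RPKM and 109 FPKM in ESC and at 88.5 RPKM and 61.4 FPKM in bodies. Both body libraries were below both ESC libraries, and Slc38a2 fell by 0.89 ± 0.13 on the log2(value + 1) scale (adjusted p 0.0166, limma). Slc7a6 was at 17.2 RPKM and 10.4 FPKM in ESC and at 24.0 RPKM and 19.8 FPKM in bodies, again without overlap. Slc7a6 rose by 0.66 ± 0.13 (adjusted p 0.0310, limma), a call that edgeR (0.0504), median-of-ratios scaling (0.0596) and the fit on only the 4 f/f libraries (0.0739) did not make. The call was also lost without any 1 of the 4 ESC libraries or either f/f body library, where the difference was 0.5 to 0.82. Without an f/f library, which leaves 1 in its group, nearly all calls over all genes were lost as well.

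In DKO, 1 of 27 was called between the stages (3.70%, against 0.827% of all genes, 0.201% higher and 0.626% lower), and it was again Slc38a2. Unadjusted, 8 of 27 had p under 0.05, beside 19.3% of all genes. Its levels were 156 RPKM and 88.4 FPKM in ESC and 72.1 RPKM and 54.2 FPKM in bodies. Slc38a2 fell by 0.90 ± 0.13 (adjusted p 0.0468, limma), and the stage difference did not differ between genotypes beyond its error (-0.00 ± 0.18, adjusted p 0.995). The 2 stage comparisons use different libraries. In both, the call was lost without any 1 of the libraries compared. The difference was then -0.95 to -0.84 in f/f and -1.04 to -0.76 in DKO. Such fits leave 1 library in a group, and most of them lost nearly all calls over all genes too. In DKO the call was also lost without any 1 of the f/f libraries (-0.90 in each fit) and with median-of-ratios scaling (adjusted p 0.0540, limma). It was lost with low genes kept (0.0907), where 0 genes were called higher and 1 lower. With only the 4 DKO libraries the adjusted p was 0.182, and that fit called 3 of all genes (0.0241%).

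Slc3a2 was at 76.6 RPKM and 73.9 FPKM in f/f bodies, below both f/f ESC libraries, with a stage difference of -0.69 ± 0.17 and an adjusted p of 0.0526 in limma (0.0346 with edgeR, 0.0296 with median-of-ratios scaling). Slc7a5 was at 77.4 RPKM and 53.6 FPKM there, and its difference of -0.77 ± 0.38 was not called (adjusted p 0.215). The size was uneven between replicates for Slc7a5 (-0.04 and -1.51), Slc1a5 (-0.39 and -1.85) and Slc7a1 (-0.23 and -1.86), each larger in replicate 2, the deposit with the higher fibroblast marker sums in ESC. In the library of immortalised f/f fibroblasts, Slc7a5, Slc1a5 and Slc7a1 were at 41.4, 11.7 and 14.9 FPKM. Their levels were 154, 40.2 and 23.6 FPKM in f/f ESC replicate 2 and 53.6, 10.4 and 5.75 FPKM in f/f body replicate 2. The part of feeders in these stage differences was not tested. The median stage difference was 0.19 for members and 0.06 for all genes in f/f, and -0.05 and 0.04 in DKO. Of all genes called in f/f, 1014 were higher and 481 lower in bodies, a split that became 765 and 810 with median-of-ratios scaling, 663 and 559 with quantile scaling, and 794 and 748 with edgeR.

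The 6 pairs of libraries labelled DKO and f/f that share a cell type and replicate were then set side by side, without a test, since MEF and day 20 have 1 library per group. Directions in the MEF and day-20 pairs rest on labels that the level of Kmt2d runs against. Of the 27 tested members, 5 were higher in the library labelled DKO in all 6 pairs (18.5%, against 7.16% of all genes tested): Slc1a5, Slc3a2, Slc7a1, Slc7a5 and the lysosomal arginine sensor Slc38a9. Slc1a5 differed by 0.26 to 2.25 on the log2(value + 1) scale, Slc7a1 by 0.78 to 1.68, Slc3a2 by 0.15 to 1.16 and Slc38a9 by 0.08 to 0.43. Slc7a5 differed by 0.00 (body replicate 1) to 1.42, so its direction rests on a rounding-sized difference in 1 pair. By the same labels Slc1a3 was lower in all 6 (3.70%, against 6.06% of all genes), from -0.08 in ESC replicate 1 to -2.36 in fibroblasts. Median-of-ratios and quantile scaling left the same 5 and 1 members in these classes. With the labels of the MEF and day-20 pairs turned, none of these 6 members could keep 1 direction, since they were picked for sharing it in all 6 pairs. Slc7a4, Slc36a1 and Slc43a3 were then higher in all 6 pairs (beside 5.61% of all genes) and Slc38a2 and Slc43a1 lower (beside 6.53%). In the 4 ESC and body pairs alone, 10 members were higher in all (beside 19.2%) and 4 lower (beside 18.7%). These include the 6 members above by the way they were picked.

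**Figure D4:**
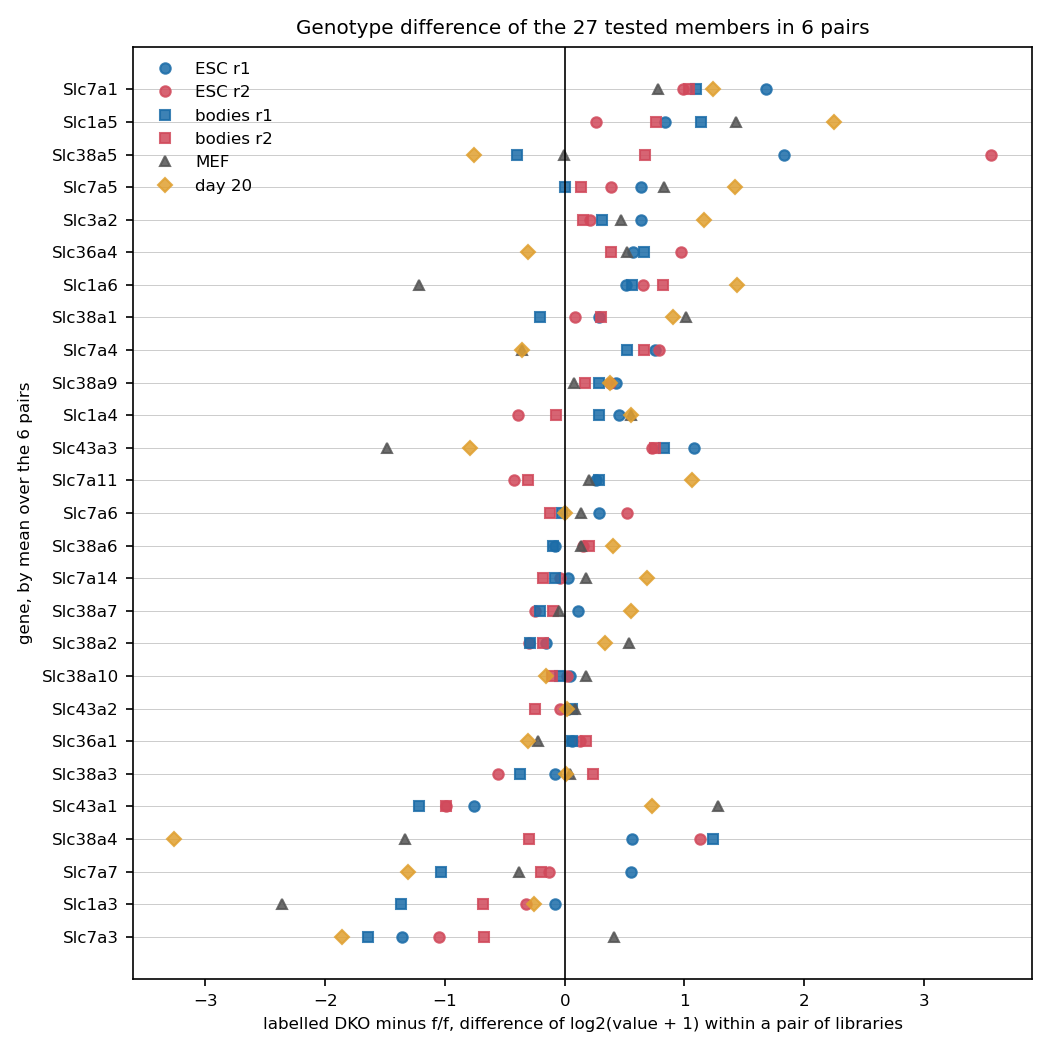
Difference between the libraries labelled DKO and f/f (horizontal axis, log2(value + 1), within a pair of libraries of the same cell type and replicate) for the 27 tested members, ordered by their mean over the 6 pairs; each point is 1 pair. Slc7a1 and Slc1a5 lie right of 0 in all 6 pairs and Slc1a3 left of it, while Slc38a4, Slc43a1 and Slc43a3 change side between the ESC and fibroblast pairs; Kmt2d runs against the labels of the fibroblast and day-20 pairs, and turning them would move those points to the other side of 0.

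Fibroblasts and day-20 cells were compared by size alone, with a difference of at least 2-fold on the log2(FPKM + 1) scale as the rule and no replicate check. In fibroblasts, 7 of 27 members at 1 FPKM or more passed it between the library labelled DKO and f/f (25.9%, against 9.63% of all such genes, 3.97% higher and 5.67% lower). Slc1a5 (33.2 against 11.7 FPKM), Slc38a1 (37.8 against 18.3) and Slc43a1 (5.25 against 1.57) were higher in the library labelled DKO. Slc1a3 (6.33 against 36.6), Slc1a6 (4.44 against 11.7), Slc43a3 (2.17 against 7.82) and Slc38a4 (0.120 against 1.82) were lower. The median difference was 0.20 for members and 0.04 for all genes.

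At day 20, 11 of 28 members passed the rule (39.3%, against 20.7% of all genes), 7 of them higher in the library labelled DKO (8.51% of all genes) and 4 lower (12.2%). Slc1a5 was at 78.7 FPKM there and at 15.8 FPKM in f/f, 4.74-fold on the log2(FPKM + 1) scale. The paired chains were higher there too, Slc3a2 at 139 against 61.8 FPKM (2.23-fold) and Slc7a5 at 94.9 against 34.7 FPKM (2.68-fold). Slc7a1 (31.9 against 13.0), Slc7a2 (22.5 against 10.3), Slc7a11 (24.8 against 11.4) and Slc1a6 (10.9 against 3.37) completed the higher class. Slc38a4 (0.119 against 9.73 FPKM), Slc7a3 (0.919 against 5.97) and Slc7a7 (0.102 against 1.74) were lower, and Slc1a1 was listed at 0 against 1.07 FPKM. Slc7a7 and Slc1a1, and Slc38a4 in fibroblasts, were below the level set for naming members and are given because they complete a count.

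Within the lower class at day 20, Slc7a3, Slc7a7 and Slc38a4 were high in ESC and bodies (22.4 or more in all 8 libraries) and low in fibroblasts. Slc1a1, also in that class, was low in ESC and bodies (0.142 to 1.46). The f/f library at day 20 held 32.1 FPKM of summed pluripotent markers and 49.8 FPKM of epithelial markers, against 10.3 and 0.649 FPKM in the library labelled DKO, where 1 of 10 and 0 of 10 of these markers reached 1 FPKM. Pou5f1, which encodes the delivered factor Oct4, supplied 19.8 FPKM of the f/f sum, against 0.118 FPKM in the library labelled DKO. Nanog alone of the pluripotent markers went the other way. It stood at 5.49 FPKM in f/f and at 9.68 FPKM in the library labelled DKO, most of the sum there. Zfp42 was at 0.0666 FPKM in f/f. In the fibroblast libraries Nanog was already at 7.26 FPKM (f/f) and 7.17 FPKM (labelled DKO), and the pluripotent markers summed to 7.57 and 7.36 FPKM. The part of pluripotent or epithelial cells in the day-20 differences was not tested.

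**Figure D5:**
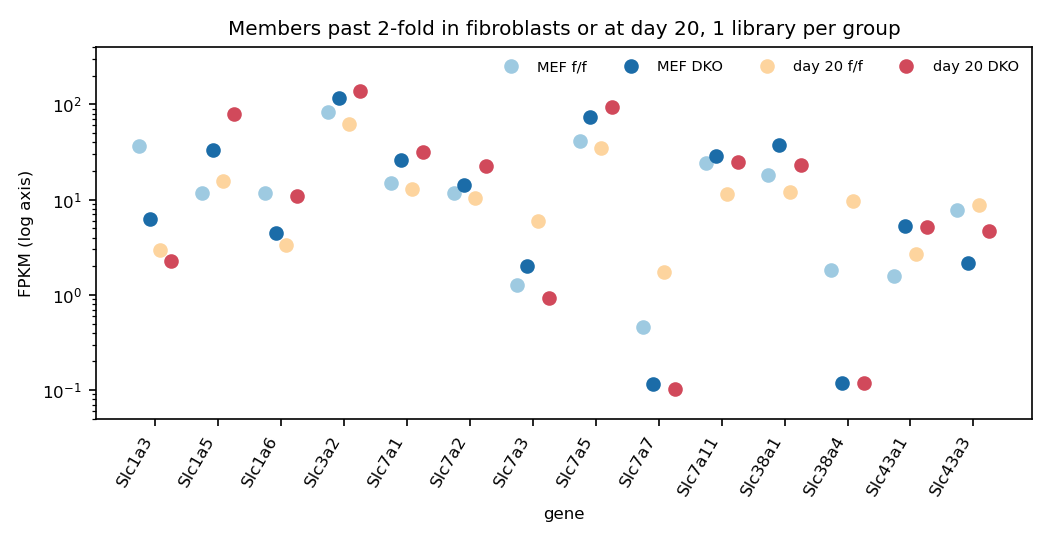
FPKM (log axis) in the 4 fibroblast and day-20 libraries for the members past 2-fold in any comparison among them; each point is 1 library and Slc1a1 is left out because it is listed at 0 in one of them. Slc1a5 is higher in the libraries labelled DKO in both cell types, and Slc38a4 is lower in both (0.120 and 0.119 FPKM).

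From fibroblasts to day 20, 5 of 29 f/f members passed 2-fold (17.2%, against 13.6% of all genes, 7.83% higher and 5.77% lower). Slc1a3 was 9.56-fold lower at day 20 (2.94 against 36.6 FPKM), Slc1a6 2.90-fold lower and Slc7a11 2.06-fold lower, while Slc38a4 was 3.80-fold higher (9.73 against 1.82 FPKM) and Slc7a3 3.07-fold higher. In the libraries labelled DKO, 3 of 25 passed (12.0%, against 8.51%, of which 4.63% higher and 3.88% lower): Slc1a5 (2.33-fold) and Slc1a6 (2.18-fold) higher and Slc1a3 lower (2.23-fold). These comparisons share libraries with the genotype comparisons above, and the difference between them was not tested.

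Other genes of amino acid handling were read from the same tests. Of 15 tested transporters of other families, 0 were called by genotype with limma or with edgeR, beside 4.24% of all genes in ESC and 4.44% in bodies by limma. An unadjusted p under 0.05 was reached by 5 in ESC and 5 in bodies, beside 22.0% and 21.2% of all genes. Slc25a12, the mitochondrial aspartate and glutamate carrier, fell by 1.59 ± 0.17 from ESC to bodies in f/f (adjusted p 0.0135). Of 31 tested genes of amino acid sensing by mTORC1, 1 rose and 1 fell with genotype in ESC, where 1.57% of all genes rose and 2.67% fell (4.24% in all). Gatsl3, an arginine sensor also called Castor1, was at 33.6 RPKM and 21.2 FPKM in f/f and at 10.7 RPKM and 6.30 FPKM in DKO, and fell by 1.59 ± 0.16 (adjusted p 0.0116). Sesn1, a leucine-sensing sestrin, rose by 0.99 ± 0.19 (adjusted p 0.0469).

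Of 19 tested genes of the amino acid response driven by ATF4, 1 rose with genotype in ESC (beside 4.24% of all genes called) and 1 rose and 1 fell in bodies (beside 4.44%). Atf3, a stress-induced partner of the response, was at 7.75 RPKM and 8.35 FPKM in f/f ESC and at 40.5 RPKM and 30.6 FPKM in DKO ESC, and rose by 2.00 ± 0.18 (adjusted p 0.0116, limma). In bodies Atf3 fell by 1.04 ± 0.18 with genotype (adjusted p 0.0327) while Ddit3, which encodes CHOP, rose by 1.55 ± 0.25 (adjusted p 0.0280). Atf4 itself fell by 0.92 ± 0.22 from ESC to bodies in f/f (adjusted p 0.0481). In DKO Atf3 fell by 3.64 ± 0.18 between the stages (adjusted p 0.00694, limma). These were the only genes of the list called between the stages, where 12.0% of all genes were called in f/f and 0.827% in DKO. The list's median stage difference was -0.6 in f/f and -0.74 in DKO, beside 0.06 and 0.04 over all genes. The list's median genotype difference was 0.27 in ESC and 0.07 in bodies, beside 0.02 and -0.01 over all genes. At day 20, 13 of its 19 genes were at least 2-fold higher in the library labelled DKO and 3 lower, where 8.51% and 12.2% of all genes were, with a median of 1.66. Chac1, a glutathione-degrading enzyme induced by ATF4, stood at 55.5 against 1.43 FPKM and Trib3 at 75.7 against 8.58 FPKM. In fibroblasts 5 of 19 were higher and 0 lower, where 3.97% and 5.67% of all genes were, with a median of 0.82. Each of these libraries is a single sample, and no link between the list and the transporters was tested.

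Among tested enzymes of amino acid synthesis and breakdown, Gcat, which acts in threonine breakdown, fell with genotype in ESC by 0.86 ± 0.15 (adjusted p 0.0345) and Oat, ornithine aminotransferase, rose by 0.82 ± 0.12 (adjusted p 0.0237). Between the stages in f/f, 1 of 34 tested enzymes rose and 4 fell, where 8.14% and 3.86% of all genes did, with Tdh, threonine dehydrogenase, at 211 RPKM and 263 FPKM in ESC and 73.1 RPKM and 21.5 FPKM in bodies. Of 9 tested glutathione genes, Gclc, the catalytic subunit of the first step, rose by 0.79 ± 0.10 with genotype in bodies (adjusted p 0.0177), where 0.827% of all genes rose. Of the 20 tRNA synthetases, 0 were called by genotype in ESC or bodies with limma or edgeR, beside 4.24% and 4.44% of all genes by limma. At each stage 2 had an unadjusted p under 0.05, beside 22.0% of all genes in ESC and 21.2% in bodies. At day 20, with 1 library per group, 7 were at least 2-fold higher in the library labelled DKO and 0 lower, beside 8.51% and 12.2% of all genes.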

How the data were processed

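RNA from 12 libraries was analysed, and 24 samples of chromatin or input DNA were left out as outside the question. The deposited tables give counts and RPKM by RefSeq transcript for replicate 1 of ESC and bodies, and FPKM by Entrez gene for the other 8 libraries, per the file headers. Software named in the submitters' processing notes was bedtools 2.16 and SICER 1.1 (first deposit) and CASAVA 1.8.2 with SICER (second), on build mm9. Which aligner, annotation and strand setting were used, and how shared reads were counted, is not given in the sources used here. In RefSeq's gene table (GRCm38.p6) the spans of 19 of the 42 members overlap another gene on either strand. For 6 members a protein-coding gene is among them, for example Snx12 for Slc7a3 and Oxa1l for Slc7a7. Exons were not compared, so whether any reads are shared with the neighbour is not known here.

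Of 29082 transcripts, 28432 matched a gene, and the most-read transcript stood for the 3760 genes with several. Depth was recovered from counts and RPKM, and from the whole-read steps of the deposited FPKM values (90.1% to 92.6% of low genes within 0.02 reads of a whole number). limma 3.58.1 (R 4.3.3) fitted log2(value + 1) of the 12462 genes with a mean of at least 1, with 4 groups and the replicate as a block over 8 libraries (3 residual degrees of freedom, 3.27 from the prior) and Benjamini-Hochberg adjustment. The replicate number marks a deposit, and libraries that share it deviated together from their group means (correlations 0.864 to 0.954 across genes). Scripts were tested on simulated data. Alternatives were edgeR 4.0.16 on whole reads, other scalings, a pseudocount of 0.25, no filter, no block, only the libraries compared, summed transcripts and each library left out. Fibroblast and day-20 groups had 1 library each and no test.

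Members named with values passed a test, passed 2-fold with at least 5 FPKM in 1 library, or led their role group; up to 4 genes per other list and comparison could be named. Further members with genotypes that did not overlap within a stage, and a few low or uncalled ones, are given beside them and were chosen after their values were seen. The members and lists were chosen with earlier results of these data known. Results of the enzyme list are given in part, and the rest is not reported here.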

Additional observations from a re-analysis of the deposited data

Results flagged for a closer look

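Slc38a5, Slc7a6 and Slc38a10 had differences that pointed one way in both libraries of a group and the other way in both libraries of the group beside it. Slc38a5 was higher in bodies than in ESC in f/f (0.62 and 0.38 on the log2(value + 1) scale in the 2 replicates) and lower in DKO (-1.61 and -2.51), a gap of 2.57 between the mean differences. Slc7a6 was higher in DKO than in f/f in ESC (0.29 and 0.52) and not in bodies (-0.02 and -0.12), a gap of 0.47. Slc38a10, a sodium-coupled family member of the cell interior, had genotype differences of 0.04 and 0.02 in ESC and -0.04 and -0.11 in bodies, a gap of 0.10. The gap itself was tested in limma as the interaction of genotype and stage and did not pass for any of them (adjusted p 0.200 for Slc38a5, 0.347 for Slc7a6 and 0.813 for Slc38a10).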

How the results depend on the processing

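The number of members called was small and moved with the processing. For DKO against f/f in ESC it was 1, and became 2 with edgeR, 2 with median-of-ratios scaling, 0 without the filter on low values, 0 with no replicate block, 9 with only the 4 libraries compared, and 0 to 1 when a library was left out. In bodies 0 became 3 with only the 4 libraries compared and 0 to 2 with a library left out. Between ESC and bodies, the count of 2 in f/f became 0 with no replicate block, 1 with only the 4 libraries compared and 0 to 4 with a library left out. In DKO the count of 1 became 0 with median-of-ratios scaling, 0 without the filter, 0 with no replicate block, 0 with only the 4 libraries compared, and 0 with any library left out. The interaction of genotype and stage stayed at 0 members in every alternative run. The fit without the block, which ignores the pairing by replicate, gave Slc38a5 an adjusted p of 0.188, Slc38a2 0.357 and 0.698, and Slc7a6 0.367. Over all genes that fit called 0 by genotype in ESC and 2 in bodies. Between the stages it called 0 in f/f and 1 in DKO. In the DKO stage comparison only 1 gene passed without the filter and 3 with only the 4 libraries compared. Leaving out a library left 1 in its group, where calls over all genes could fall to nearly none. A member count of 0 in such fits says little about the members. Of 1343 alternative values of named members, 1288 kept their side of the threshold, 35 lost a call, 20 gained one and 0 called values changed sign, while 35 of 81 uncalled differences changed sign at least once. Only the few differences called in the main fit could lose a call, so the 1288 values say little about how stable those calls are. Of the members higher in the library labelled DKO in all 6 pairs, the count of 5 became 3 with the fibroblast and day-20 labels turned and 10 over the ESC and body pairs alone, and the count of 1 lower became 2 and 4. These readings and the scalings of the 6 pairs were chosen after seeing the data. Causes of these shifts were not tested. With 2 libraries per group and 1 per replicate, only large or very even differences could pass, and low members such as Slc38a5 rest on few reads.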
